A study of Homo sapiens with 30 samples.

Results

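The epidermal growth factor (EGF) receptor family and its ligands were followed as 8 genes, chosen by name: the receptors EGFR, ERBB2 and ERBB3, the ligands AREG, EREG, HBEGF and TGFA, and the receptor inhibitor ERRFI1. They were chosen with earlier results of these data known, as were the pathway lists below. Counts of their calls beside the share over all genes are therefore descriptions. All 8 were found among the 26801 genes of the deposited table, and 6 of them reached the level needed for a test, at least 1 FPKM in at least 3 libraries. FPKM counts the fragments of a gene relative to its length and to the fragments of its library, so levels of different genes can be set side by side. ERBB3 and HBEGF stayed under 1 FPKM in all 30 libraries and are described by their levels.

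The cells were A549, an established human lung adenocarcinoma line. The libraries form 10 groups of 3, which cross magnetic exposure, marked 2 H and EX in the labels, and its absence, marked NE, with 5 backgrounds. The backgrounds are the RSRP1 knockout with the label parts iR and D3 (iR_KOA_D3), the wild type with both (iR_WTA_D3), the knockout with iR (iR_KOA), the wild type with iR (iR_WTA), and the knockout with neither (KOA). The labels explain neither iR nor D3. They do not say if the knockout is 1 clone or if libraries of 1 group come from cultures grown apart, so the p-values rest on a library-to-library spread that could be purely technical. The knockout without iR has no wild type counterpart among the samples analysed here.

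EGFR is a tyrosine kinase of the cell surface that pairs with itself or with ERBB2 or ERBB3 when a ligand binds. The ligands are made as membrane-anchored precursors that ADAM proteases cut free. Paired receptors pass the signal on through adaptor proteins to RAS and the ERK kinases and to PI3 kinase, and lung adenocarcinomas often depend on this route. ERBB2 binds no known ligand and serves as a partner, ERBB3 has little kinase activity of its own and binds neuregulins, and ERRFI1 (also called MIG6) binds the kinase domain of active receptors and blocks it.

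The promoters of 3 members are shown, because ERRFI1 was the member that rose with exposure in every background and because AREG and EREG, neighbours on chromosome 4, both fell with D3 and with the knockout. Each runs from 250 bases before to 50 bases after the annotated start (RefSeq, GRCh38.p14, 5′ to 3′ on the strand of the gene). They lie at chr1:8026260-8026559 on the minus strand for ERRFI1, chr4:74444886-74445185 on the plus strand for AREG and chr4:74364895-74365194 on the plus strand for EREG. Capitals mark a GC box (GGGCGG) in ERRFI1, a cyclic AMP response element (CRE, TGACGTCA) and a TATA box (TATAAA) in AREG, and a TATA box in EREG.
ERRFI1: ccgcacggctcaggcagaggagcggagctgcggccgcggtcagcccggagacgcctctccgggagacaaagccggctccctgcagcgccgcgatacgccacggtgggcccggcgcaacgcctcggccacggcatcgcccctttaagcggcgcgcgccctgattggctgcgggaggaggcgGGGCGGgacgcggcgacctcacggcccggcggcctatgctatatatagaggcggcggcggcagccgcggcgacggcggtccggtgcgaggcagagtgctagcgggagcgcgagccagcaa
AREG: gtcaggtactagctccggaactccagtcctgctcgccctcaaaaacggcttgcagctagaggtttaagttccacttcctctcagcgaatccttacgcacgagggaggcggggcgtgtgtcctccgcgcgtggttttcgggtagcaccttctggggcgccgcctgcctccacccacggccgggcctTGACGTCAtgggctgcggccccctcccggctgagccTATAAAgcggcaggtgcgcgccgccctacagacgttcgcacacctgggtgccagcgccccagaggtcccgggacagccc
EREG: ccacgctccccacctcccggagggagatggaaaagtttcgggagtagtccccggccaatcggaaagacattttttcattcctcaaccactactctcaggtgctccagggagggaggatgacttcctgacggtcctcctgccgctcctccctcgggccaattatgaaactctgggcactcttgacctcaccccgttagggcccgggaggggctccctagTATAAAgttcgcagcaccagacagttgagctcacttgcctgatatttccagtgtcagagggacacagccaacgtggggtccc
The letters TATAAA began 29 bases before the start of AREG and 32 bases before that of EREG, and the CRE of AREG began 65 bases before its start. ERRFI1 held no TATAAA in its window, and its GC box began 70 bases before the start. Between that GC box and the start its sequence holds the letters TATATATA, which were not among those searched. The lack of TATAAA is thus not shown to be the lack of a TATA box. Searched on both strands, TATAAA was present in 11.5% of all 35116 promoter windows, TGACGTCA in 1.85% and GGGCGG in 45.0%. A further GC box stands in lower case on the minus strand 9 bases before the start of AREG, and overlaps neither capitalised run. A match describes the letters and is not a shown binding site.

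In the same annotation EGFR spans chr7:55019017-55211628 and ERBB2 chr17:39688094-39728658, both on the plus strand, and ERBB3 spans chr12:56080108-56103505. EREG (chr4:74365145-74388749) and AREG (chr4:74445136-74455005) both lie on the plus strand, with 56386 bases and no other annotated gene start between them. HBEGF (chr5:140332843-140346603), TGFA (chr2:70447284-70553826) and ERRFI1 (chr1:8011727-8026309) lie on the minus strand. No source used here states strand-specific counting, and EGFR and the antisense RNA EGFR-AS1 within it cannot be told apart without it.

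Recovered read totals ran from 34619949 to 38938967 per library, a ratio of 1.125. RSRP1, the targeted gene, lay between 2.09 and 7.95 FPKM in the 18 knockout libraries and between 37.4 and 63.4 FPKM in the 12 wild type libraries. The epithelial markers KRT7, KRT8, KRT18, KRT19, EPCAM and CDH1 summed to 2062 to 2874 FPKM in exposed and 2068 to 2587 FPKM in unexposed knockout libraries, and to 2000 to 2343 FPKM in exposed and 2082 to 2280 FPKM in unexposed wild type libraries. KRT8 (892 to 1395 FPKM) and KRT18 (726 to 1111 FPKM) made up most of these sums, while EPCAM had only 0.402 to 1.85 FPKM. The surfactant gene SFTPB, a marker of alveolar type 2 cells, stayed at or near 0. SFTPC reached at most 0.292 FPKM. The 5 alveolar markers in the table, of 6 listed, summed to 0.484 to 1.82 FPKM in exposed and 0.172 to 0.643 FPKM in unexposed knockout libraries, and to 0.432 to 1.30 FPKM in exposed and 0.247 to 0.647 FPKM in unexposed wild type libraries. Among them NAPSA had 0.437 to 1.74 FPKM in exposed and 0.113 to 0.545 FPKM in unexposed knockout libraries. In the wild type NAPSA had 0.417 to 1.28 FPKM with and 0.171 to 0.631 FPKM without exposure. The part of these alveolar markers in the exposure results was not tested. Any difference below is in RNA per library: fewer cells that make a transcript and less of it per cell cannot be told apart.

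**Figure D1:**
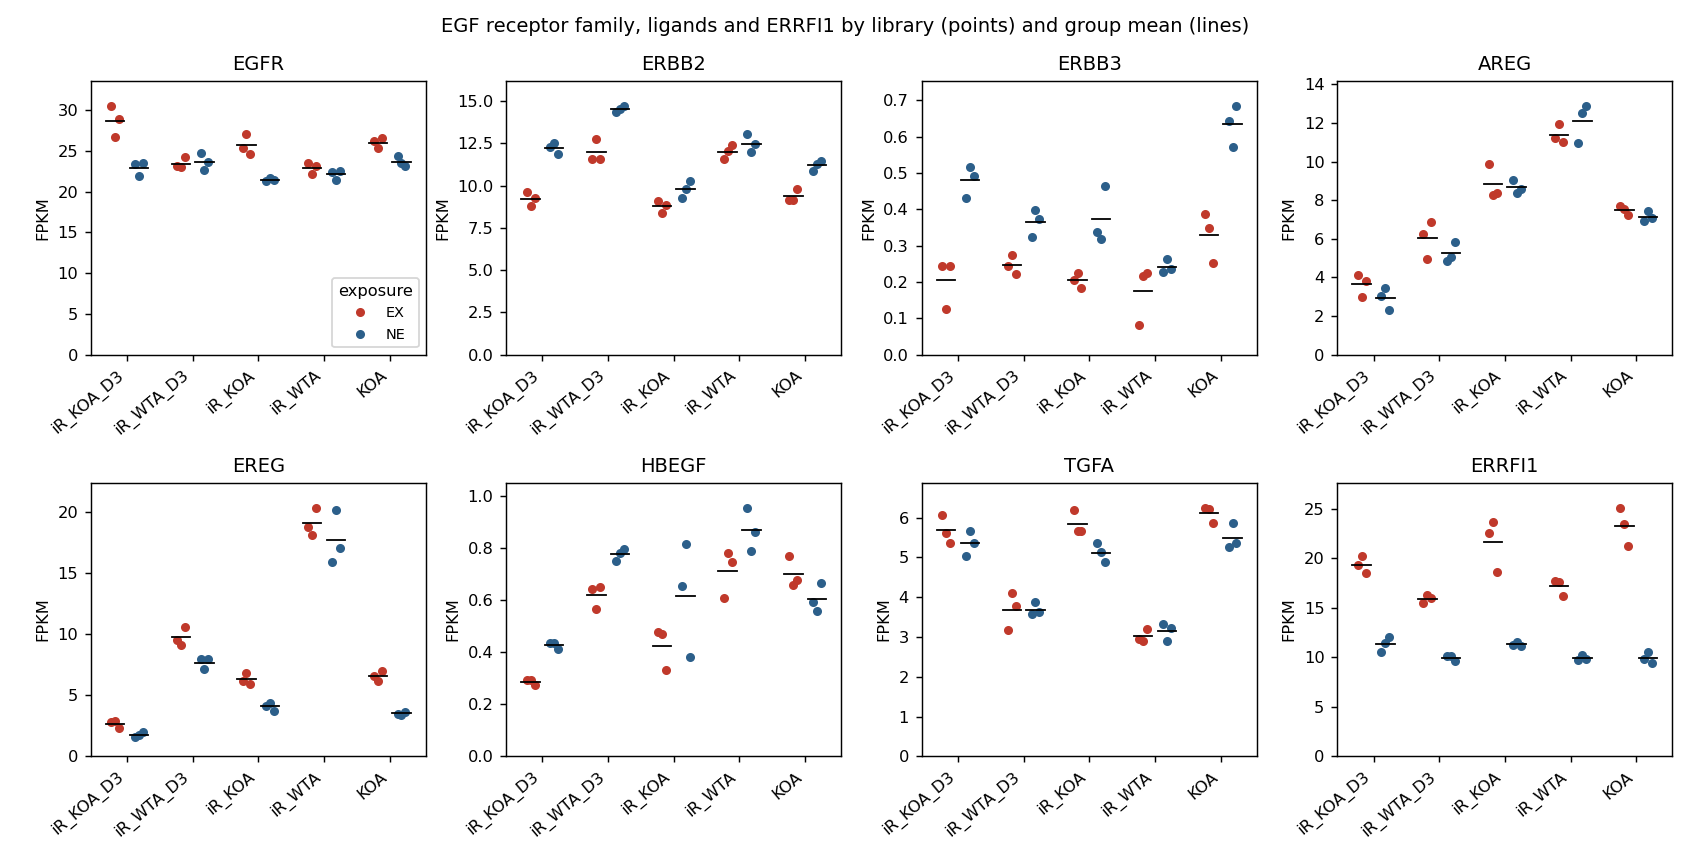
FPKM (vertical axes, each from 0) of the 8 genes in the 5 backgrounds, with 3 exposed (red, left) and 3 unexposed (blue, right) libraries as points and the group mean as a line. ERRFI1 lies higher in every exposed library than in any unexposed one, TGFA higher in every knockout library than in any wild type one, and EREG spans 1.61 to 20.3 FPKM.

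EGFR was the most abundant member and varied least. It ranged from 21.2 to 30.5 FPKM over the 30 libraries (8952 to 12118 reads), and the highest group mean was 1.34 times the lowest. ERRFI1 followed, with 9.42 to 25.1 FPKM, then ERBB2 with 8.37 to 14.7 FPKM. EREG (1.61 to 20.3 FPKM), AREG (2.32 to 12.9 FPKM) and TGFA (2.90 to 6.25 FPKM) were the more abundant of the 4 ligand genes. EREG varied most among the 8, with a ratio of 10.7 between its highest and lowest group means. HBEGF (0.276 to 0.955 FPKM, 23 to 83 reads) and ERBB3 (0.0827 to 0.685 FPKM, 19 to 149 reads) were the scarcest.

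The first comparison set exposed against unexposed cells within each background, the question that the exposure arm of the design poses. ERRFI1, the receptor inhibitor, rose in all 5 backgrounds, by 1.60 to 2.34 times in FPKM. EREG rose in 4 backgrounds and not detectably in iR_WTA, EGFR rose in the 3 knockout backgrounds, and ERBB2 fell in 4 backgrounds and not detectably in iR_WTA. AREG passed the test in no background and TGFA in 1.

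Of the 6 tested members, 4 were called in KOA (3 higher, 1 lower), where 18.8% of all 12086 genes tested were called higher and 22.7% lower. In iR_KOA 5 were called (4 higher, 1 lower), against a background of 13.1% higher and 22.3% lower. In iR_KOA_D3 4 were called (3 higher, 1 lower), against 17.3% higher and 27.8% lower. In iR_WTA only ERRFI1 was called, against 11.4% higher and 17.2% lower, and in iR_WTA_D3 3 were called (2 higher, 1 lower), against 15.3% higher and 26.5% lower. A call is an adjusted p under 0.05 from limma over all genes tested, and differences are given as log2(FPKM + 1), a scale that compresses changes at low levels. The median of the 6 members was 0.13 in KOA, 0.21 in iR_KOA, 0.27 in iR_KOA_D3, 0.00 in iR_WTA and 0.08 in iR_WTA_D3, where the median of all genes tested lay between -0.05 and -0.02.

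Among the receptors, EGFR had 30.5, 26.7 and 28.8 FPKM in exposed iR_KOA_D3 libraries, against 23.4, 21.9 and 23.5 FPKM in unexposed ones. In iR_KOA it had 25.4, 27.1 and 24.6 FPKM with exposure, against 21.2, 21.7 and 21.4 FPKM without. In KOA it had 26.1, 25.4 and 26.5 FPKM with exposure, against 24.4, 23.5 and 23.1 FPKM without. In all 3 knockout backgrounds every exposed library lay above every unexposed one. The log2 difference was 0.31 ± 0.044 (SE; adjusted p = 3.517e-06) in iR_KOA_D3, 0.25 (adjusted p = 0.0001193) in iR_KOA and 0.13 (adjusted p = 0.01942) in KOA, n = 3 against 3 in limma. The wild type libraries overlapped. EGFR had 23.1, 23.0 and 24.2 FPKM in exposed and 24.7, 22.7 and 23.6 FPKM in unexposed iR_WTA_D3 libraries, a difference of -0.01 (95% interval -0.10 to 0.08). It had 23.4, 22.1 and 23.1 FPKM in exposed and 22.4, 21.4 and 22.5 FPKM in unexposed iR_WTA libraries, a difference of 0.05 (95% interval -0.04 to 0.14). The call in KOA was lost on leaving out exposed replicate 1 or 3 or unexposed replicate 2 or 3, with an adjusted p of 0.05425 to 0.07982 and a difference of 0.11 to 0.13.

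ERBB2, the ligandless partner receptor, ran the other way. It had 9.61, 8.79 and 9.27 FPKM in exposed iR_KOA_D3 libraries, against 12.3, 12.5 and 11.9 FPKM in unexposed ones (-0.37 ± 0.046 SE, adjusted p = 3.774e-07). In iR_WTA_D3 it had 11.6, 12.8 and 11.6 FPKM with exposure, against 14.3, 14.5 and 14.7 FPKM without (-0.26, adjusted p = 5.668e-05). In KOA it had 9.16, 9.17 and 9.80 FPKM with exposure, against 10.9, 11.3 and 11.4 FPKM without (-0.23, adjusted p = 0.0001743). In these 3 backgrounds, n = 3 against 3 in the limma fit, no exposed library reached the level of an unexposed one. In iR_KOA the exposed libraries had 9.09, 8.37 and 8.86 FPKM, against 9.25, 9.80 and 10.3 FPKM in unexposed ones, a difference of -0.14 (adjusted p = 0.01835). That call was lost under both other scalings of the libraries (adjusted p = 0.06487 and 0.06206), with only the 2 groups in the fit (adjusted p = 0.1392), and without exposed replicate 2 (adjusted p = 0.1056) or unexposed replicate 3 (adjusted p = 0.1082). In iR_WTA the values overlapped, at 11.6, 12.1 and 12.4 FPKM with exposure against 13.0, 12.0 and 12.5 FPKM without, a difference of -0.05 (95% interval -0.15 to 0.04).

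ERBB3, the neuregulin receptor, was below the level for a test. It had 0.388, 0.349 and 0.252 FPKM in exposed KOA libraries, against 0.645, 0.573 and 0.685 FPKM in unexposed ones. The means were 0.205 FPKM with and 0.480 FPKM without exposure in iR_KOA_D3, and 0.206 FPKM with and 0.373 FPKM without in iR_KOA. In these knockout backgrounds the exposed libraries all lay below the unexposed ones. In the wild type the means were 0.246 FPKM with and 0.366 FPKM without exposure in iR_WTA_D3 and 0.175 FPKM with and 0.242 FPKM without in iR_WTA, and the libraries did not overlap in either. A fit with no filter on low values gave ERBB3 an adjusted p of 7.631e-05 in KOA, 8.249e-05 in iR_KOA_D3 and 0.01086 in iR_KOA, and of 0.06117 in iR_WTA_D3 and 0.3625 in iR_WTA. At 19 to 149 reads a library, these are among the least precise values of the 8.

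Among the ligands, EREG (epiregulin, which binds EGFR and ERBB4) had 6.61, 6.16 and 6.99 FPKM in exposed KOA libraries, against 3.47, 3.41 and 3.64 FPKM in unexposed ones. In iR_KOA it had 6.14, 6.80 and 5.94 FPKM with exposure, against 4.15, 4.38 and 3.72 FPKM without. In iR_KOA_D3 it had 2.78, 2.89 and 2.34 FPKM with exposure, against 1.61, 1.74 and 2.01 FPKM without. Exposed and unexposed libraries did not overlap in any of the 3. The log2 difference was 0.75 ± 0.078 (SE; adjusted p = 2.424e-08) in KOA, 0.52 (adjusted p = 1.465e-05) in iR_KOA and 0.40 (adjusted p = 0.0001822) in iR_KOA_D3, n = 3 against 3 in limma. Wild type cells held more EREG in every library than any knockout cells. In iR_WTA_D3 EREG had 9.55, 9.11 and 10.6 FPKM with exposure, against 7.92, 7.15 and 7.92 FPKM without (0.31, adjusted p = 0.002365). In iR_WTA it had 18.7, 18.1 and 20.3 FPKM with exposure, against 15.9, 20.2 and 17.1 FPKM without, which overlapped (0.10, 95% interval -0.06 to 0.26).

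AREG (amphiregulin, a ligand of EGFR alone) had overlapping exposed and unexposed libraries in all 5 backgrounds. The group means were 7.50 ± 0.23 FPKM with and 7.14 ± 0.28 FPKM without exposure in KOA, and 8.85 ± 0.89 FPKM with and 8.66 ± 0.36 FPKM without in iR_KOA (SD, n = 3 each). Its widest difference was in iR_KOA_D3, with 4.12, 2.99 and 3.82 FPKM in exposed against 3.06, 3.46 and 2.32 FPKM in unexposed libraries (0.24 ± 0.10 SE, adjusted p = 0.05997 in limma). This difference passed the threshold with a pseudocount of 0.1 (0.30, adjusted p = 0.04633), with median-of-ratios scaling (0.26, adjusted p = 0.0337), with quantile normalization (0.29, adjusted p = 0.02009), and without exposed replicate 2 (adjusted p = 0.01153) or unexposed replicate 2 (adjusted p = 0.01795). In iR_WTA_D3 AREG had 6.26, 4.95 and 6.87 FPKM with exposure, against 4.83, 5.06 and 5.85 FPKM without (0.16, adjusted p = 0.2058), and passed only without exposed replicate 2 (0.28, adjusted p = 0.03297). In iR_WTA it averaged 11.4 FPKM with and 12.1 FPKM without exposure, a difference of -0.08 (95% interval -0.29 to 0.13).

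TGFA (transforming growth factor alpha, also a ligand of EGFR) had 6.20, 5.66 and 5.67 FPKM in exposed iR_KOA libraries, against 5.35, 5.13 and 4.88 FPKM in unexposed ones. This was its one called difference with exposure, 0.16 ± 0.063 (SE; adjusted p = 0.04719 in limma). The call was lost with a pseudocount of 0.1 (adjusted p = 0.05793), with no filter (adjusted p = 0.08943), with only the 2 groups in the fit (adjusted p = 0.1078), and on leaving out any exposed library or unexposed replicate 2 or 3, with an adjusted p of 0.05021 to 0.1791. In KOA TGFA averaged 6.11 FPKM with and 5.49 FPKM without exposure (0.13, adjusted p = 0.09236), and in the other 3 backgrounds the interval of its difference included 0. HBEGF, the heparin-binding ligand, averaged 0.701 FPKM with and 0.605 FPKM without exposure in KOA. Its means were lower with exposure in the other 4 backgrounds, at 0.287 FPKM with and 0.428 FPKM without in iR_KOA_D3 and 0.619 FPKM with and 0.777 FPKM without in iR_WTA_D3. In the fit with no filter HBEGF passed the threshold in no background.

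ERRFI1, the feedback inhibitor, had 25.1, 23.4 and 21.3 FPKM in exposed KOA libraries, against 9.81, 10.6 and 9.42 FPKM in unexposed ones. In iR_KOA it had 22.6, 23.7 and 18.6 FPKM with exposure, against 11.3, 11.6 and 11.2 FPKM without. In iR_KOA_D3 it had 19.4, 20.2 and 18.5 FPKM with exposure, against 10.6, 11.4 and 12.1 FPKM without. The lowest exposed knockout library, at 18.5 FPKM, lay well above the highest unexposed one, at 12.1 FPKM. In iR_WTA ERRFI1 had 17.7, 17.6 and 16.2 FPKM with exposure, against 9.71, 10.2 and 9.79 FPKM without. In iR_WTA_D3 it had 15.5, 16.4 and 16.0 FPKM with exposure, against 10.1, 10.1 and 9.64 FPKM without. All 15 exposed libraries thus lay above all 15 unexposed ones. The log2 difference was 1.15 (adjusted p = 4.639e-13) in KOA, 0.87 (adjusted p = 4.14e-10) in iR_KOA, 0.74 (adjusted p = 8.999e-09) in iR_WTA, 0.72 (adjusted p = 3.905e-09) in iR_KOA_D3 and 0.63 (adjusted p = 4.368e-08) in iR_WTA_D3, each with an SE of 0.066 in limma.

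**Figure D2:**
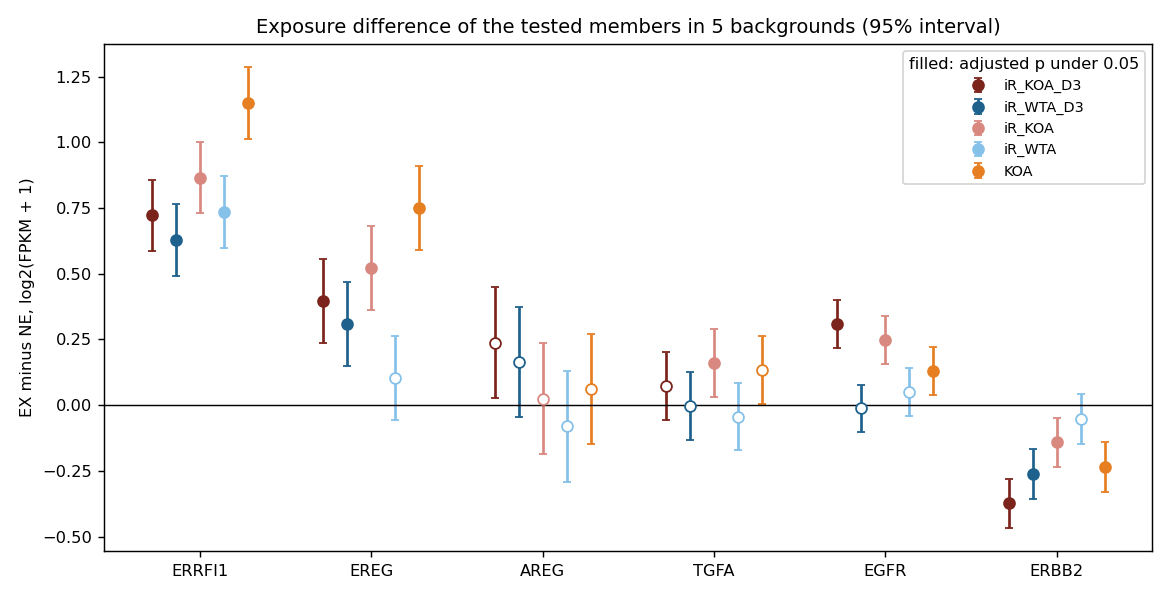
Exposed minus unexposed difference on the log2(FPKM + 1) scale (vertical axis) for the 6 tested members in the 5 backgrounds, with 95% intervals and filled points where the adjusted p was under 0.05. ERRFI1 lies between 0.63 and 1.15 in all 5, EGFR is filled in the 3 knockout backgrounds (0.13 to 0.31), and ERBB2 is filled below 0 in 4.

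Whether an exposure difference itself differed between backgrounds was tested with interaction terms. For EGFR the difference in iR_KOA_D3 exceeded that in iR_WTA_D3 by 0.32 ± 0.063 (SE; adjusted p = 0.004336 in limma), in a comparison where 2.38% of all genes were called in either direction and EGFR was the 1 member called. For ERBB2 the difference in iR_KOA_D3 was lower than that in iR_KOA by 0.23 on the log2 scale (-0.23 ± 0.064 SE, adjusted p = 0.03987), again the 1 member called, where 4.14% of all genes were. The EGFR result was lost with only the 4 groups compared in the fit (adjusted p = 0.06915). The ERBB2 result was lost there (adjusted p = 0.1321), with no filter (adjusted p = 0.05966), and without any 1 of 8 of its 12 libraries, namely exposed iR_KOA_D3 replicates 2 and 3, unexposed iR_KOA_D3 replicates 1 and 2, exposed iR_KOA replicates 1 and 3 and unexposed iR_KOA replicates 1 and 2 (adjusted p = 0.06385 to 0.1292).

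No member was called in the other 4 interactions. Between iR_KOA and iR_WTA, where 0.538% of all genes were called, EREG differed in its exposure difference by 0.42 ± 0.11 (SE; adjusted p = 0.09707), EGFR by 0.20 (adjusted p = 0.2088) and TGFA by 0.20 (adjusted p = 0.4428), the 3 members with an unadjusted p under 0.05. The difference of EREG between exposures is therefore not shown to differ between knockout and wild type. Between iR_KOA and KOA, where 5.08% of all genes were called, ERRFI1 differed by -0.28 ± 0.093 (SE; adjusted p = 0.08192) and EREG by -0.23 (adjusted p = 0.2859), the 2 members with an unadjusted p under 0.05. The ERRFI1 difference passed without exposed KOA replicate 3 (-0.34, adjusted p = 0.03209) or exposed iR_KOA replicate 2 (-0.35, adjusted p = 0.02559). Between iR_WTA_D3 and iR_WTA, where 1.67% were called, ERBB2 had the 1 unadjusted p under 0.05, with a difference of -0.21 (adjusted p = 0.1047), and passed without exposed iR_WTA_D3 replicate 2 (-0.25, adjusted p = 0.0249). The interaction of D3 with genotype in unexposed cells, where 17.5% of all genes were called, left EREG alone with an unadjusted p under 0.05 (0.24, adjusted p = 0.1466).

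The second comparison set knockout against wild type cells at the same exposure and label parts. EREG was the member that differed most: every knockout library lay below every wild type library, with or without D3, and the group means were 0.230 to 0.330 times those of the wild type. AREG and ERBB2 were also lower in the knockout in all 4 settings, TGFA and ERRFI1 were higher in all 4, and EGFR was called higher in the 2 exposed settings. In unexposed iR cells 5 of the 6 tested members were called (2 higher, 3 lower), where 27.9% of all genes were called higher and 37.4% lower. In exposed iR cells all 6 were called (3 higher, 3 lower), against 27.4% higher and 38.2% lower. With D3, 5 were called in unexposed cells (2 higher, 3 lower), against 24.8% higher and 44.3% lower, and 6 in exposed cells (3 higher, 3 lower), against 26.0% higher and 43.9% lower. These comparisons use the libraries of the exposure comparisons again and are not independent of them.

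EREG averaged 4.08 ± 0.33 FPKM in unexposed iR_KOA cells and 17.7 ± 2.2 FPKM in unexposed iR_WTA cells (SD, n = 3 each). The knockout was different by -1.88 ± 0.078 on the log2 scale (SE; adjusted p = 6.039e-17 in limma). It averaged 6.29 FPKM in exposed iR_KOA and 19.0 FPKM in exposed iR_WTA cells (-1.46, adjusted p = 1.201e-14). With D3 the means were 1.79 FPKM in knockout and 7.66 FPKM in wild type unexposed cells (-1.64, adjusted p = 8.21e-16). In exposed cells with D3 they were 2.67 FPKM in the knockout and 9.75 FPKM in the wild type (-1.55, adjusted p = 2.69e-15). The highest knockout library of all, at 6.99 FPKM, lay below the lowest wild type one, at 7.15 FPKM.

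TGFA was higher in all 18 knockout libraries (4.88 to 6.25 FPKM) than in any of the 12 wild type ones (2.90 to 4.12 FPKM). Exposed iR_WTA libraries had 2.96, 2.91 and 3.19 FPKM and unexposed ones 3.32, 2.90 and 3.22 FPKM, the 2 groups with the lowest means. The log2 difference was 0.56 (adjusted p = 1.808e-08) in unexposed iR cells, 0.77 (adjusted p = 6.136e-11) in exposed iR cells, 0.44 (adjusted p = 8.977e-07) in unexposed D3 cells and 0.52 (adjusted p = 6.769e-08) in exposed D3 cells, each with an SE of 0.063 in limma. The direction was thus opposite to that of EREG and AREG, ligands of the same receptor.

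AREG had 9.06, 8.36 and 8.57 FPKM in unexposed iR_KOA libraries, against 10.9, 12.5 and 12.9 FPKM in unexposed iR_WTA ones (-0.44 ± 0.10 SE, adjusted p = 0.0005535 in limma). With exposure it had 9.87, 8.29 and 8.38 FPKM in iR_KOA, against 11.2, 11.9 and 11.0 FPKM in iR_WTA (-0.33, adjusted p = 0.005907). The difference was -0.67 (adjusted p = 2.568e-06) in unexposed and -0.60 (adjusted p = 1.319e-05) in exposed D3 cells. The knockout and wild type groups of AREG did not overlap in any of the 4 settings. HBEGF, below the level for a test, averaged 0.617 FPKM in knockout and 0.868 FPKM in wild type unexposed iR cells, and 0.287 FPKM in knockout and 0.619 FPKM in wild type exposed D3 cells. In the fit with no filter it was lower in the knockout in all 4 settings (-0.33 to -0.22, adjusted p = 0.0002149 to 0.01083). Its libraries overlapped in unexposed iR cells, at 0.381 to 0.815 FPKM in the knockout and 0.788 to 0.955 FPKM in the wild type, and in no other setting.

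Among the receptors, ERBB2 differed by -0.32 (adjusted p = 8.437e-07) in unexposed iR cells, -0.41 (adjusted p = 1.606e-08) in exposed iR cells, -0.23 (adjusted p = 7.87e-05) in unexposed D3 cells and -0.34 (adjusted p = 3.071e-07) in exposed D3 cells. EGFR averaged 25.7 FPKM in exposed iR_KOA and 22.9 FPKM in exposed iR_WTA cells (0.16 ± 0.044 SE, adjusted p = 0.002891 in limma). With D3 its exposed means were 28.7 ± 1.9 FPKM in the knockout and 23.4 ± 0.70 FPKM in the wild type (SD, n = 3 each; 0.28, adjusted p = 4.365e-06). In unexposed cells EGFR overlapped between genotypes, with a difference of -0.04 in both settings (95% interval -0.13 to 0.05 in each). ERBB3, below the level for a test, averaged 0.373 FPKM in knockout and 0.242 FPKM in wild type unexposed iR cells, without overlap. In the limma fit with no filter ERBB3 passed the threshold there (0.14, adjusted p = 0.02399) and in no other genotype setting (adjusted p = 0.06756 to 0.6508). ERRFI1 averaged 21.6 FPKM in knockout and 17.2 FPKM in wild type exposed iR cells (0.31, adjusted p = 0.0002085), and 19.4 FPKM in knockout and 16.0 FPKM in wild type exposed D3 cells (0.26, adjusted p = 0.0009959).

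Unexposed ERRFI1 differed less, with 11.4 FPKM in the knockout and 9.91 FPKM in the wild type in iR cells (0.18, adjusted p = 0.01934 in limma), and 11.4 FPKM in the knockout and 9.97 FPKM in the wild type in D3 cells (0.17, adjusted p = 0.02414). The call in iR cells was lost without unexposed iR_KOA replicate 2 (adjusted p = 0.05913) or unexposed iR_WTA replicate 1 (adjusted p = 0.0577) or 3 (adjusted p = 0.05076). The call in D3 cells was lost without unexposed iR_KOA_D3 replicate 2 (adjusted p = 0.05707) or 3 (adjusted p = 0.1196) or unexposed iR_WTA_D3 replicate 3 (adjusted p = 0.08199).

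Cell type markers also moved with genotype. KRT19, one of the epithelial markers, lay between 0.0194 and 0.331 FPKM in knockout libraries and between 16.3 and 22.8 FPKM in wild type ones. The 5 leukocyte markers in the table, of 6 listed, summed to 6.15 to 18.1 FPKM in knockout and 1.13 to 3.06 FPKM in wild type libraries. CD14 made up nearly all of this sum, at 5.96 to 17.9 FPKM in the knockout and 1.05 to 2.90 FPKM in the wild type, while PTPRC, the pan-leukocyte marker, stayed at or under 0.0411 FPKM. The 6 fibroblast markers, with DCN at or under 0.00807 FPKM, summed to 0.742 to 2.51 FPKM in exposed and 0.463 to 0.925 FPKM in unexposed knockout libraries, and to 2.35 to 4.38 FPKM in exposed and 1.35 to 2.44 FPKM in unexposed wild type libraries. Among them COL1A1 had 2.09 to 3.71 FPKM in exposed and 1.12 to 1.79 FPKM in unexposed wild type libraries, which did not overlap, and the part of this list in the exposure results was not tested. The 6 endothelial markers summed to 0.294 to 1.32 FPKM in knockout and 0.0377 to 0.110 FPKM in wild type libraries, with PECAM1 at or under 0.0114 FPKM. CDH5 among them had 0.261 to 1.29 FPKM in the knockout and at most 0.0334 FPKM in the wild type. The part of these markers in the results by genotype was not tested.

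The third comparison set D3 against no D3 within iR cells of the same genotype and exposure. The chromosome 4 neighbours both fell in all 4 settings, AREG to 0.340 to 0.529 times and EREG to 0.425 to 0.512 times the level without D3. No library with D3 reached the level of a library without it in the same setting for either gene. ERBB2 rose with D3 in unexposed cells of both genotypes, TGFA rose in the wild type, EGFR rose in exposed knockout cells, and ERRFI1 was called in no setting. In unexposed iR_WTA cells 4 of the 6 tested members were called (2 higher, 2 lower), where 22.3% of all genes were called higher and 26.3% lower. In exposed iR_WTA cells 3 were called (1 higher, 2 lower), against 20.0% higher and 27.4% lower. In unexposed iR_KOA cells 3 were called (1 higher, 2 lower), against 19.2% higher and 34.5% lower, and in exposed iR_KOA cells 3 (1 higher, 2 lower), against 18.1% higher and 34.1% lower.

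AREG averaged 5.25 ± 0.54 FPKM in unexposed iR_WTA_D3 and 12.1 ± 1.0 FPKM in unexposed iR_WTA cells (SD, n = 3 each; -1.07 ± 0.10 SE, adjusted p = 4.147e-09 in limma). The difference was -0.83 (adjusted p = 2.869e-07) in exposed wild type cells, -1.30 (adjusted p = 6.142e-11) in unexposed knockout cells and -1.09 (adjusted p = 1.848e-09) in exposed knockout cells. EREG averaged 7.66 ± 0.45 FPKM in unexposed iR_WTA_D3 and 17.7 ± 2.2 FPKM in unexposed iR_WTA cells (SD, n = 3 each; -1.11 ± 0.078 SE, adjusted p = 1.911e-11). Its difference was -0.90 (adjusted p = 8.003e-10) in exposed wild type cells, -0.87 (adjusted p = 7.976e-10) in unexposed knockout cells and -0.99 (adjusted p = 6.958e-11) in exposed knockout cells. The lowest values of both ligands in the series were thus in iR_KOA_D3 cells, where D3 and the knockout meet.

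ERBB2 averaged 14.5 ± 0.19 FPKM in unexposed iR_WTA_D3 and 12.5 ± 0.53 FPKM in unexposed iR_WTA cells (0.20, adjusted p = 0.0006424 in limma), and 12.2 ± 0.33 FPKM in unexposed iR_KOA_D3 and 9.78 ± 0.52 FPKM in unexposed iR_KOA cells (SD, n = 3 each; 0.30, adjusted p = 5.252e-06). In exposed cells its difference was -0.01 (95% interval -0.10 to 0.09) in the wild type and 0.06 (95% interval -0.03 to 0.16) in the knockout, and the knockout value passed under both other scalings (0.15 and 0.14). TGFA differed by 0.18 (adjusted p = 0.02088) in unexposed and 0.22 (adjusted p = 0.005715) in exposed wild type cells. The unexposed TGFA call was lost without unexposed iR_WTA_D3 replicate 2 (adjusted p = 0.08996) or unexposed iR_WTA replicate 2 (adjusted p = 0.1176), and the exposed one without exposed iR_WTA_D3 replicate 2 (adjusted p = 0.05722) or with only the 2 groups in the fit (adjusted p = 0.08055). In the knockout TGFA gave 0.06 (95% interval -0.07 to 0.18) unexposed and -0.03 (95% interval -0.16 to 0.10) exposed. ERBB3, below the level for a test, averaged 0.366 FPKM in iR_WTA_D3 and 0.242 FPKM in iR_WTA unexposed cells. In the limma fit with no filter ERBB3 passed the threshold there (0.14, adjusted p = 0.04509) and in no other D3 setting. HBEGF passed in no D3 setting of that fit (lowest adjusted p = 0.0594, in unexposed knockout cells).

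EGFR with D3 averaged 28.7 FPKM in exposed iR_KOA_D3 and 25.7 FPKM in exposed iR_KOA cells, whose libraries overlapped (0.15 ± 0.044 SE, adjusted p = 0.005437 in limma). That call was lost without exposed iR_KOA_D3 replicate 1 (adjusted p = 0.05653) and with only the 2 groups in the fit (adjusted p = 0.07376). In unexposed cells the difference was 0.09 in both genotypes (adjusted p = 0.08248 in the wild type and 0.08572 in the knockout). Those 2 values passed under median-of-ratios scaling (0.11 and 0.18) and quantile normalization (0.16 and 0.20), and without unexposed iR_WTA_D3 replicate 2 (adjusted p = 0.04693) or unexposed iR_KOA_D3 replicate 2 (adjusted p = 0.03818). Unexposed ERRFI1 differed little, with 9.97 FPKM in iR_WTA_D3 and 9.91 FPKM in iR_WTA cells and 11.4 FPKM in both iR_KOA_D3 and iR_KOA cells, differences of 0.01 (95% interval -0.13 to 0.14) and -0.00 (95% interval -0.14 to 0.13). Its difference in exposed knockout cells, -0.15 (adjusted p = 0.06721), passed without exposed iR_KOA replicate 3 (-0.25, adjusted p = 0.001523).

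Summed over the 4 ligand genes, the level was 12.3 ± 0.85 FPKM in exposed and 10.5 ± 0.67 FPKM in unexposed iR_KOA_D3 cells (SD, n = 3 each), the lowest of the series. It was 20.1 ± 1.6 FPKM in exposed and 17.4 ± 0.72 FPKM in unexposed iR_WTA_D3 cells, and 21.4 ± 1.2 FPKM in exposed and 18.5 ± 0.85 FPKM in unexposed iR_KOA cells. It was highest in iR_WTA cells, with 34.2 ± 0.96 FPKM exposed and 33.9 ± 2.6 FPKM unexposed. EREG made up 55.7% of the sum in exposed and 52.2% in unexposed iR_WTA cells, and 21.8% in exposed and 17.1% in unexposed iR_KOA_D3 cells. TGFA made up 46.3% in exposed and 51.0% in unexposed iR_KOA_D3 cells, and 8.83% in exposed and 9.35% in unexposed iR_WTA cells. In KOA cells the sum was 20.9 ± 0.39 FPKM exposed and 16.7 ± 0.54 FPKM unexposed. Of these 4 ligand genes the most abundant transcript was TGFA in iR_KOA_D3 cells and EREG in iR_WTA and iR_WTA_D3 cells. In the other knockout backgrounds it was AREG, with 41.3% in exposed and 46.9% in unexposed iR_KOA cells, and 35.9% in exposed and 42.6% in unexposed KOA cells. These sums are of RNA and give no measure of free ligand.

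**Figure D3:**
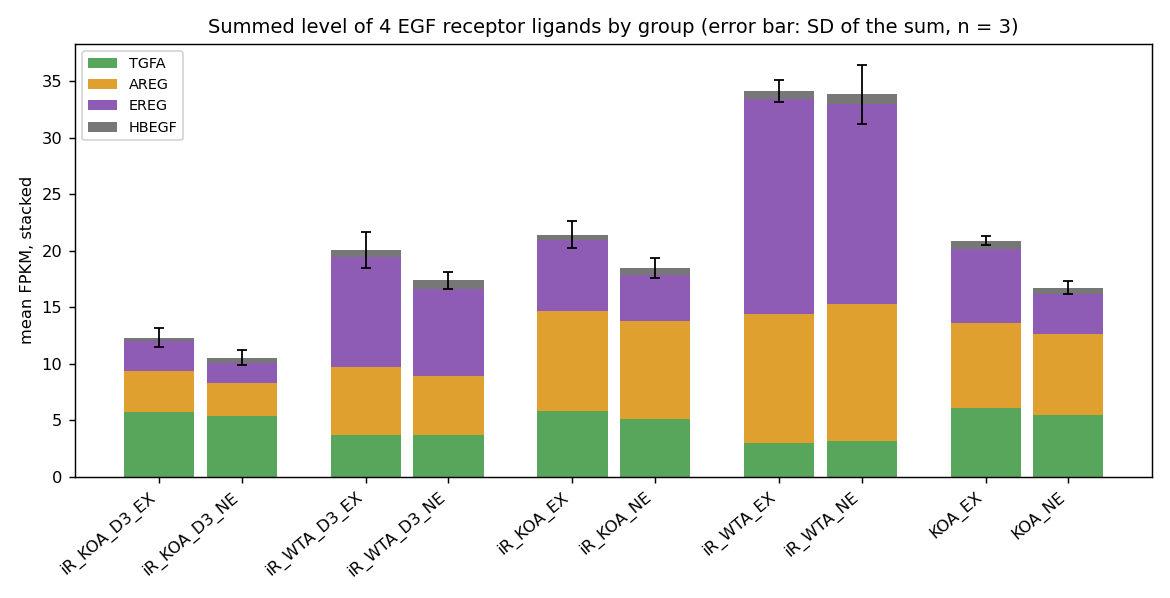
Mean FPKM of the ligands TGFA, AREG, EREG and HBEGF stacked by group (vertical axis), with the SD of the sum over 3 libraries as the error bar and exposed groups left of unexposed ones. The sum runs from 10.5 FPKM in unexposed iR_KOA_D3 to 34.2 FPKM in exposed iR_WTA cells.

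The fourth comparison set iR against no iR in the knockout. In unexposed cells 3 of the 6 tested members were called (1 higher, 2 lower), where 18.7% of all genes were called higher and 19.8% lower. EGFR was lower, with 21.4 FPKM in iR_KOA and 23.7 FPKM in KOA cells (-0.14 ± 0.044 SE, adjusted p = 0.01708 in limma), and so was ERBB2, with 9.78 FPKM in iR_KOA and 11.2 FPKM in KOA cells (-0.18, adjusted p = 0.002912). ERRFI1 was higher, with 11.4 FPKM in iR_KOA and 9.94 FPKM in KOA cells (0.18, adjusted p = 0.03503). The EGFR call was lost without unexposed KOA replicate 1 (adjusted p = 0.07795) or unexposed iR_KOA replicate 1 (adjusted p = 0.05524), and the ERRFI1 call with no filter (adjusted p = 0.06988), without unexposed KOA replicate 1 (adjusted p = 0.08545) or 3 (adjusted p = 0.1432), or without unexposed iR_KOA replicate 1 (adjusted p = 0.07212) or 2 (adjusted p = 0.105).

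AREG averaged 8.66 FPKM in iR_KOA and 7.14 FPKM in KOA unexposed cells without overlap (0.25, adjusted p = 0.05804 in limma), and passed under both other scalings and with only the 2 groups in the fit (adjusted p = 0.005931). EREG averaged 4.08 FPKM in iR_KOA and 3.51 FPKM in KOA unexposed cells (0.17, adjusted p = 0.08452), and passed with quantile normalization (adjusted p = 0.03838) or without unexposed iR_KOA replicate 3 (adjusted p = 0.03924). In exposed cells limma called none of the 6, where 16.3% of all genes were called higher and 23.4% lower, and none had an unadjusted p under 0.05. The nearest was AREG, with 8.85 FPKM in iR_KOA and 7.50 FPKM in KOA exposed cells (0.21, adjusted p = 0.1046 in limma). ERBB3 averaged 0.373 FPKM in iR_KOA and 0.634 FPKM in KOA unexposed cells, and HBEGF 0.425 FPKM in iR_KOA and 0.701 FPKM in KOA exposed cells, both below the level for a test. The fit with no filter gave an adjusted p of 0.0006596 for ERBB3 in unexposed cells (-0.25) and of 0.005975 for HBEGF in exposed cells (-0.26). For ERBB3 in exposed cells, at 0.206 FPKM in iR_KOA and 0.330 FPKM in KOA, that limma fit gave an adjusted p of 0.04604 (-0.14).

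Ordered by group mean, EREG showed steps at which adjoining groups did not overlap at 7 of 9 places, and overlapped only between exposed iR_KOA and KOA cells and between unexposed and exposed iR_WTA cells. AREG fell into 5 pairs, each of the exposed and unexposed cells of 1 background, which overlapped within a pair and not between adjoining pairs. Its order of backgrounds was iR_KOA_D3, iR_WTA_D3, KOA, iR_KOA and iR_WTA from low to high. TGFA had all 4 wild type groups below all 6 knockout groups, and each knockout group overlapped the next. ERRFI1 had all 5 unexposed groups below all 5 exposed ones, and exposed KOA and iR_KOA cells, the highest, overlapped. EGFR overlapped between adjoining groups at 7 of 9 places. The gaps lay between unexposed KOA and exposed iR_KOA cells and between exposed KOA and exposed iR_KOA_D3 cells. They hold for adjoining groups only. Unexposed iR_WTA_D3 cells reached 24.7 FPKM, above the lowest exposed iR_KOA library at 24.6 FPKM. Exposed iR_KOA cells reached 27.1 FPKM, above the lowest exposed iR_KOA_D3 library at 26.7 FPKM.

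Across the 10 group means, AREG and EREG correlated with r = 0.775 and rho = 0.661, EREG and TGFA with r = -0.812 and rho = -0.661, and EGFR and ERRFI1 with r = 0.705 and rho = 0.552. These describe 10 groups that share genotype and exposure, and no p is given. By Pearson correlation over the same 10 group means, the tested genes most like AREG were SHCBP1 (r = 0.993), DIAPH3 (r = 0.992) and NCAPG (r = 0.991). Those most like EREG were PVR (r = 0.989), KANSL2 (r = 0.985) and RNF8 (r = 0.984), and those most like ERRFI1 were HSPA1L (r = 0.971), JDP2 (r = 0.968) and KLHDC10 (r = 0.968).

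The other genes of the pathway were described as 5 lists of 8, 6, 13, 22 and 16 genes. Among the other ligands and the receptor ERBB4, 3 of 8 genes reached the level for a test. NRG1 (neuregulin 1, a ligand of ERBB3 and ERBB4) rose with exposure in all 5 backgrounds. Its 9 exposed knockout libraries had 5.92 to 8.46 FPKM, against 2.47 to 3.48 FPKM in the 9 unexposed ones, and its 6 exposed wild type libraries had 13.9 to 16.2 FPKM, against 6.74 to 10.1 FPKM in the 6 unexposed ones. Exposed and unexposed libraries of a genotype did not overlap. The log2 difference was 1.18 in KOA, 1.17 in iR_KOA_D3, 0.96 in iR_WTA_D3, 0.71 in iR_KOA and 0.55 in iR_WTA, with a highest adjusted p of 1.822e-08 in limma. Like EREG it was lower in the knockout, by -1.29 (adjusted p = 3.262e-17) in unexposed and -1.13 (adjusted p = 4.723e-16) in exposed iR cells. NRG2 fell with exposure in the 3 knockout backgrounds (-0.24, -0.16 and -0.42 in KOA, iR_KOA and iR_KOA_D3). It was higher in unexposed knockout cells, at 0.911 FPKM in iR_KOA and 0.104 FPKM in iR_WTA. Its group means exceeded 1 FPKM only in unexposed KOA and iR_KOA_D3 cells. Its entry to the test thus leaned on groups in which it was high. The limma fit with no filter gave the 3 falls an adjusted p of 0.0009068, 0.03238 and 1.371e-06, in the same order. That fit gave the genotype difference in unexposed iR cells an adjusted p of 8.086e-12. BTC (betacellulin) fell with exposure in iR_WTA cells, to 1.35 FPKM with against 1.72 FPKM without (adjusted p = 0.03253).

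Of the 6 genes of ligand shedding, 5 were tested. With exposure none rose, while 11.4% to 18.8% of all genes did. Of the 5, 0 fell in KOA, 1 in iR_KOA, 3 in iR_KOA_D3, 0 in iR_WTA and 2 in iR_WTA_D3, while 17.2% to 27.8% of all genes fell. Counts this small among 5 genes were not tested against those shares. Where limma called 0, 1 gene in KOA and 0 in iR_WTA had an unadjusted p under 0.05. FRMD8 and RHBDF1, which help the protease ADAM17 mature and reach the cell surface, were among those that fell, by 0.34 and 0.30 on the log2 scale in iR_KOA_D3. With the knockout, ADAM17 averaged 16.2 FPKM in iR_KOA and 10.9 FPKM in iR_WTA unexposed cells (0.53, adjusted p = 8.255e-11 in limma), and RHBDF1 3.06 FPKM in iR_KOA and 5.21 FPKM in iR_WTA cells (-0.61, adjusted p = 8.546e-07). In that comparison 3 of the 5 were higher and 1 lower, beside 27.9% and 37.4% of all genes.

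Receptor attenuation, ubiquitin ligases and other proteins that turn receptors off or remove them, had 12 of 13 genes tested. With exposure 6 rose and 3 fell in each of KOA, iR_KOA and iR_KOA_D3, 3 rose and 2 fell in iR_WTA, and 5 rose and 2 fell in iR_WTA_D3, with list medians of 0.01 to 0.15. Over all genes 11.4% to 18.8% rose and 17.2% to 27.8% fell in these comparisons, with medians of -0.05 to -0.02. LRIG3 had 8.94 FPKM with and 4.56 FPKM without exposure in KOA (0.84, adjusted p = 2.239e-11), and 4.71 FPKM with and 3.92 FPKM without in iR_KOA (0.21, adjusted p = 0.007017 in limma). It also rose in iR_KOA_D3 (0.23, adjusted p = 0.002875). CBLB, a ubiquitin ligase that marks active receptors for removal, rose in the 3 knockout backgrounds (0.44, 0.26 and 0.37 in KOA, iR_KOA and iR_KOA_D3) and in iR_WTA_D3 (0.30, adjusted p = 2.776e-05). SOCS5 rose in all 5 backgrounds, by 0.40 in KOA, 0.23 in iR_KOA, 0.35 in iR_KOA_D3, 0.26 in iR_WTA and 0.31 in iR_WTA_D3 (highest adjusted p = 0.0006929). PTPN1, a phosphatase of receptor kinases, fell in all 5, with -0.33 in KOA, -0.20 in iR_KOA, -0.33 in iR_KOA_D3, -0.29 in iR_WTA and -0.34 in iR_WTA_D3 (highest adjusted p = 0.001422). By genotype LRIG1, which promotes the removal of EGFR, averaged 3.58 FPKM in iR_KOA and 1.47 FPKM in iR_WTA unexposed cells (0.89, adjusted p = 7.469e-14), and CBLB 3.08 FPKM in iR_KOA and 6.26 FPKM in iR_WTA cells (-0.83, adjusted p = 7.497e-14). LRIG1 was also higher with D3 in all 4 settings (0.53 to 0.61).

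The signalling core between receptor and kinases had 21 of 22 genes tested. With exposure 4 rose and 6 fell in KOA, 6 rose and 6 fell in iR_KOA, 3 rose and 8 fell in iR_KOA_D3, 4 rose and 2 fell in iR_WTA, and 5 rose and 7 fell in iR_WTA_D3, with medians of -0.07 to -0.00. Over all genes 11.4% to 18.8% rose and 17.2% to 27.8% fell, with medians of -0.05 to -0.02. PIK3R1, the regulatory subunit of PI3 kinase, fell in all 5, to 1.72 FPKM with exposure against 3.59 FPKM without in KOA (-0.76, adjusted p = 3.036e-11 in limma) and 2.10 FPKM with against 2.93 FPKM without in iR_WTA (-0.34, adjusted p = 3.555e-05). SOS1, which loads RAS with GTP, rose in all 5, by 0.31 to 0.43. By genotype the adaptor SHC1 averaged 53.5 FPKM in iR_KOA and 86.0 FPKM in iR_WTA unexposed cells (-0.68, adjusted p = 8.703e-14), and the kinase ARAF 23.7 FPKM in iR_KOA and 14.7 FPKM in iR_WTA cells (0.65, adjusted p = 3.731e-10). HRAS fell with D3 in unexposed cells of both genotypes (-0.52 in the wild type, -0.47 in the knockout) and in exposed wild type cells (-0.46, adjusted p = 2.897e-06), with a difference of -0.14 in exposed knockout cells (adjusted p = 0.0845).

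ERK output, genes commonly induced by active ERK, had 14 of 16 genes tested. With exposure 8 rose and 3 fell in KOA, 6 rose and 0 fell in iR_KOA, 10 rose and 2 fell in iR_KOA_D3, 9 rose and 0 fell in iR_WTA, and 8 rose and 0 fell in iR_WTA_D3. The list medians were 0.29, 0.09, 0.27, 0.26 and 0.21 in that order, beside medians of all genes between -0.05 and -0.02, of which 11.4% to 18.8% rose and 17.2% to 27.8% fell. EPHA2, a receptor kinase, rose in all 5, to 37.7 FPKM with exposure against 14.3 FPKM without in KOA (1.34, adjusted p = 4.664e-16) and 32.7 FPKM with against 23.0 FPKM without in iR_WTA (0.49, adjusted p = 2.355e-07). PHLDA1 had 35.5 FPKM with and 11.6 FPKM without exposure in KOA (1.54, adjusted p = 1.324e-17 in limma), and DUSP6, a phosphatase of ERK, 3.83 FPKM with and 2.09 FPKM without in iR_WTA_D3 (0.64, adjusted p = 1.337e-07). FOS, an immediate early gene, fell in KOA, to 1.03 FPKM with against 2.08 FPKM without (-0.63, adjusted p = 0.0003569).

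By genotype the 14 genes of the ERK output list had 4 higher and 8 lower in the knockout in unexposed and 3 higher and 9 lower in exposed iR cells, and 4 higher and 9 lower in unexposed and 3 higher and 9 lower in exposed D3 cells. Over all genes 24.8% to 27.9% were higher and 37.4% to 44.3% lower. FOSL1, a subunit of AP-1, averaged 4.13 FPKM in iR_KOA and 17.1 FPKM in iR_WTA unexposed cells (-1.82, adjusted p = 8.756e-16 in limma), and CCND1 (cyclin D1) 40.5 FPKM in iR_KOA and 92.6 FPKM in iR_WTA cells (-1.17, adjusted p = 5.849e-19). FOSL1 also fell with D3 in the wild type, to 6.92 FPKM in iR_WTA_D3 against 17.1 FPKM in iR_WTA unexposed cells (-1.19, adjusted p = 2.893e-11), and in the knockout, to 2.63 FPKM in iR_KOA_D3 against 4.13 FPKM in iR_KOA unexposed cells (-0.50, adjusted p = 2.605e-05). In exposed cells its difference was -1.17 (adjusted p = 3.686e-11) in the wild type and -0.21 (adjusted p = 0.04035) in the knockout. With D3 in unexposed cells 5 of the 14 were higher and 2 lower in the wild type, beside 22.3% and 26.3% of all genes, and 4 higher and 3 lower in the knockout, beside 19.2% and 34.5%. With iR in exposed knockout cells 1 was higher and 8 lower, beside 16.3% and 23.4% of all genes, among them EPHA2, with 21.5 FPKM in iR_KOA and 37.7 FPKM in KOA cells (-0.78, adjusted p = 2.67e-11).

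**Figure D4:**
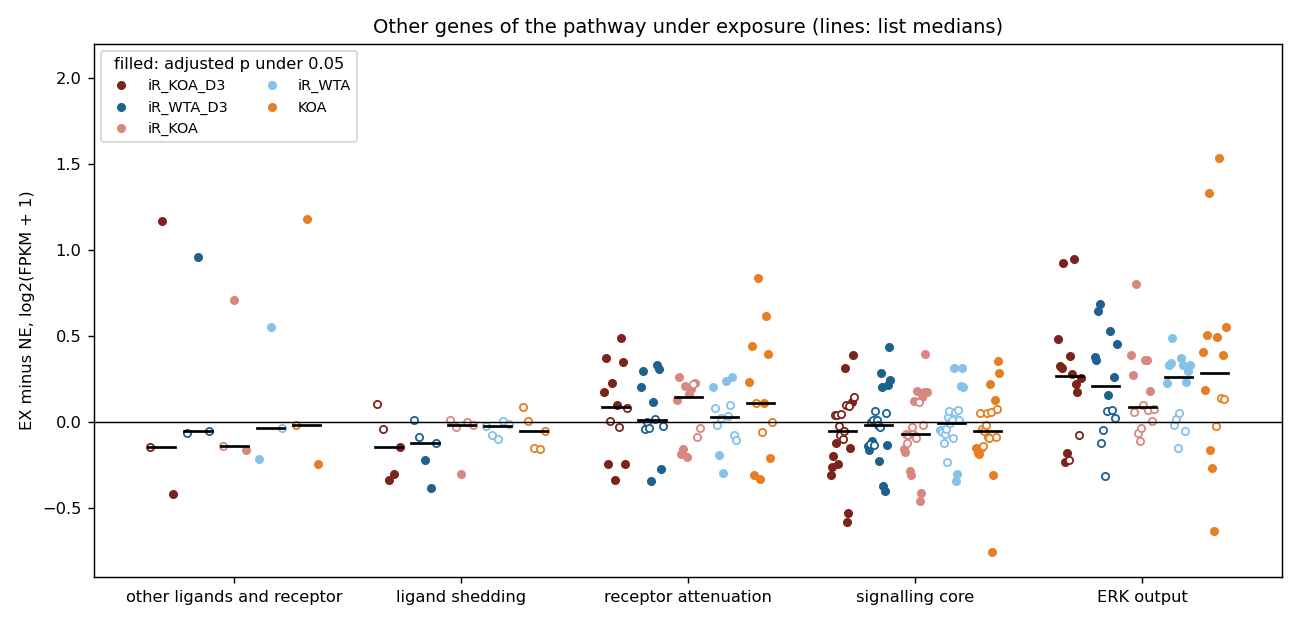
Exposed minus unexposed difference on the log2(FPKM + 1) scale (vertical axis) for each tested gene of the 5 pathway lists, by background (colour), filled where the adjusted p was under 0.05, with list medians as lines. The ERK output medians lie between 0.09 and 0.29, while those of the signalling core lie between -0.07 and -0.00.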

How the data were processed

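RNA sequencing libraries of A549 cells (30 in 10 groups of 3) were analysed from 1 deposited table. The authors' deposited values are FPKM per gene and library; fastp, HISAT2, HTSeq and the build GRCh38 are listed in the submitters' processing notes, without versions. No source used here gives the counting annotation, gene lengths or filters. Another 6 value columns, whose names fit no sample, were left out. Steps between FPKM values gave whole reads (tolerance 0.01) for all 26801 genes, which were used for depth alone; the fewest were 19 for ERBB3, 23 for HBEGF and 103 for AREG.

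Values were tested as log2(FPKM + 1) over 12086 genes, those that reached 1 FPKM or more in 3 or more libraries, in 1 linear model of 10 group means (limma 3.58.1, R 4.3.3, moderated test with mean-variance trend, 20 residual degrees of freedom), two-sided, with Benjamini-Hochberg adjustment within each of 21 comparisons and a threshold of 0.05. The code was tested on simulated data. Alternatives were a pseudocount of 0.1, no filter, median-of-ratios scaling, quantile normalization, fits of the compared groups only, a replicate block, and leaving out each library.

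The members and lists were chosen with earlier results of these data known. The 8 members were followed throughout, ERBB3 and HBEGF by their levels and the fit with no filter. From each list, up to 3 called genes with the largest difference were picked in each exposure comparison and 2 in the others. A gene so picked may also be named in other comparisons. For members whose group means span at least 1 on the log2 scale, the 3 most correlated genes are named.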

Additional observations from a re-analysis of the deposited data

Results flagged for a closer look

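The exposure difference of EGFR was larger in iR_KOA_D3 than in iR_WTA_D3 cells, by 0.32 on the log2 scale (limma interaction term), with EGFR at 28.7 FPKM exposed and 22.9 FPKM unexposed in the knockout and at 23.4 FPKM exposed and 23.7 FPKM unexposed in the wild type. This limma call was lost with only the compared groups in the fit (adjusted p = 0.06915).

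The exposure difference of ERBB2 was lower in iR_KOA_D3 than in iR_KOA cells, a difference of -0.23 on the log2 scale (limma interaction term), with ERBB2 at 9.22 FPKM exposed and 12.2 FPKM unexposed with D3 and at 8.77 FPKM exposed and 9.78 FPKM unexposed without it. The unexposed ERBB2 level is shared with the comparison of D3 in unexposed cells, so the 2 are not independent.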

How the results depend on the processing

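Counts of member calls stayed within 1.5 times of 17 for exposure, 22 for genotype and 13 for D3 under every alternative run, as did the 480 calls over the 5 pathway lists, and no member difference that was called changed sign. The 3 calls for iR became 5 with no filter (where all 8 members are tested), 5 with quantile normalization, and 1 to 4 on leaving out 1 library. The 2 interaction calls became 1 with no filter, 0 with only the compared groups in the fit, and 1 to 3 on leaving out 1 library. Over the leave-one-out values of the members, 927 kept their side of the threshold, 35 lost a call and 10 gained one. Over all genes tested, counts of calls moved by more than 1.5 times in 5 of 21 comparisons with only the compared groups (17 calls for the exposure effect of iR_KOA against iR_WTA to 2131 for exposure in iR_KOA, where all groups gave 65, and 1578 higher and 2694 lower), and in 1 with a pseudocount of 0.1 (40 calls for the same effect). They also moved in 24 of 162 leave-one-out counts, each of 1 comparison without 1 of its libraries. All 24 were of interactions, with 30 to 911 calls.

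Same-numbered replicates did not pair in general: in 2 of 15 comparisons every correlation of their deviations was over 0.1, and they ran from -0.325 to 0.306. With the replicate block, member calls were 16 for exposure, 22 for genotype, 14 for D3, 3 for iR and 3 for interactions, and pathway list calls 481. TGFA in iR_KOA lost its exposure call (adjusted p = 0.05342), while ERRFI1 gained the D3 call in exposed iR_KOA (adjusted p = 0.03794) and the interaction of iR_KOA with KOA (adjusted p = 0.04196), all by limma.

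No scaling moved the median of all genes by over 0.1. ERBB3 (19 to 149 reads), HBEGF (23 to 83 reads) and, less so, AREG (103 to 588 reads) are limited by depth.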
